A study of Oryza sativa with 16 samples.

Results

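The clone probes were 60-mer oligonucleotides, each designed from 1 completely sequenced full-length cDNA (FL-cDNA) clone of rice and placed on both array sets of a 2-color microarray. They were chosen by name alone: every probe other than a control whose identifier begins with AK, the accession series of these clones. There were 1028 of them among 83040 different probes, and because the other probes lay on only 1 array set, the clone probes were the only ones with 2 spots in each replicate. Judged by their names, the other probes comprised 37444 on FL-cDNA loci, 21761 on models of a coding sequence (CDS), 14331 on ENDS models and 8476 on 3'-end units.

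An FL-cDNA clone is a DNA copy of an mRNA that runs from its capped 5' end to its poly(A) tail, kept in a bacterial plasmid. A library of such clones is made from the RNA of 1 tissue, so abundant transcripts of that tissue are picked from it again and again, and rare ones seldom. Many of the clones come from genes that most plant cells use, while others come from genes of 1 organ, such as the photosynthetic genes of green leaves. The files, the study and the gene table used here name the gene for almost none of the clone probes, so they are described by clone accession, and roles are given for only 3 of them.

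The arrays compared Nipponbare root, Nipponbare panicle, Nipponbare callus and IR64 shoot, each with Nipponbare shoot on the same array. Nipponbare is a japonica cultivar and IR64 an indica cultivar, neither with any transgene or treatment that the labels name. According to the labels, shoots of both cultivars grew 10 days in soil in a greenhouse and roots 10 days in hydroponic culture, callus was kept 28 days, and panicles came from the field with no age given. The study's methods add that panicles were at late boot stage, that callus was induced from scutellum on medium with 2,4-D, and that RNA of several plants was pooled, so a replicate is a pool and not a plant. They give the shoots a greater age than the labels do. Shoot RNA was extracted with another reagent than root, panicle and callus RNA, so extraction and tissue cannot be told apart in those 3 comparisons. Each comparison had 2 replicates on 2 array sets, 4 arrays in all, with the tissue in Cy3 in replicate 1 and in Cy5 in replicate 2, so the replicate cannot be told apart from the dye orientation either. The labels name 1 shoot extract for the first replicates and another for the second, except in callus, where both replicates name the second extract. All 4 comparisons therefore share shoot RNA, and their values are given side by side. Tissue labels were not checked on marker genes, since no marker could be assigned to a probe.

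The clone probes were the brightest kind of probe in every hybridization. Signal intensity here is the background-subtracted signal of a channel, scaled so that the median of all probes other than controls is 1000 and limited to 100000. The median signal of the clone probes in Nipponbare shoot was 32004 (SD 5362 between the medians of 8 hybridizations, which ran from 25210 to 37429). It was 43418 in root (medians of 37712 and 48522 in the 2 replicates), 45191 in panicle (44471 and 47359) and 39898 in callus (36499 and 41940). In IR64 shoot it was 25198 (24013 and 26258). The shoot channel of the same IR64 arrays had medians of 25429 and 25210, so both cultivars were dimmer there than Nipponbare shoot on the other arrays. Probes on FL-cDNA loci had a median of 2048 in Nipponbare shoot, those on 3'-end units 1311, those on ENDS models 501 and those on CDS models 369. The clone probes had the highest of these medians in 16 of 16 hybridizations, 13.1 to 20.7 times that of the FL-cDNA loci.

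**Figure D1:**
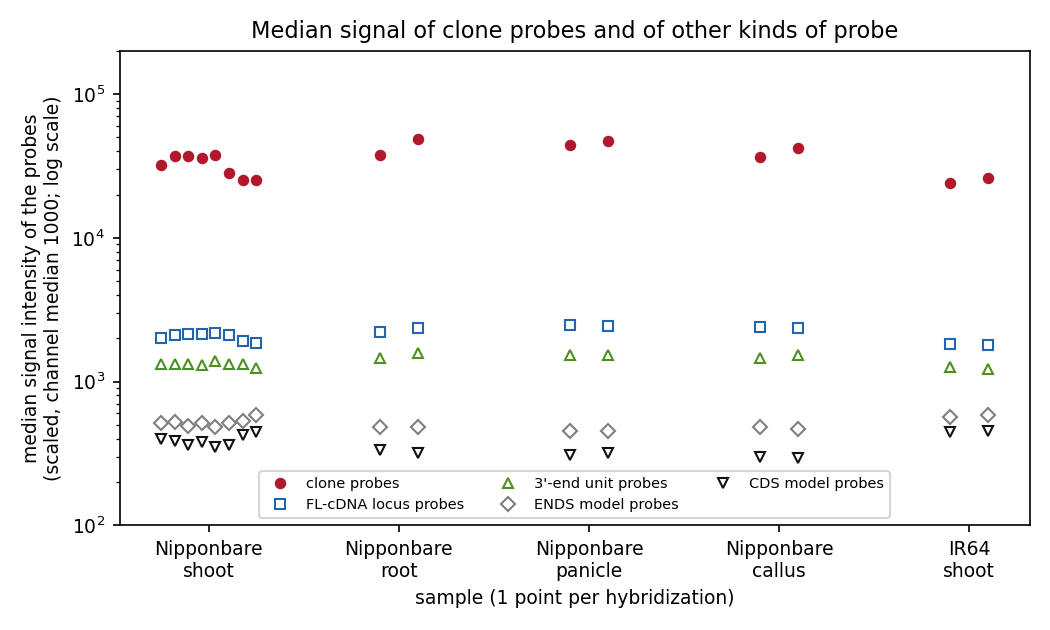
Median signal intensity of each kind of probe (log axis, all probes other than controls scaled to a median of 1000) in each hybridization, grouped by sample, where Nipponbare shoot has 8 points and the others 2 each. The filled points of the clone probes lie between 24013 and 48522, above those of the other 4 kinds in every hybridization.

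Signal was found for every clone. All 1028 were well above background in both channels of all arrays, against 72.2% of all probes. Above a signal of 1000, a stricter level that the study used against cross-hybridization, were 1028 clone probes in shoot, 1027 in root, 1028 in panicle, 1028 in callus and 1025 in IR64. The probe below it in root was AK059231. At the upper limit were 158 in shoot, 142 in root, 168 in panicle, 145 in callus and 125 in IR64, and 340 reached it in at least 1 Nipponbare sample, 29 in all 4. Signals at the limit have no order. A saturated spot was found for 183 clone probes and an outlier spot for 35 on at least 1 array.

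The 2 spots of a clone probe agreed more closely than its 2 replicates. Over the clone probes, the SD of the log2 ratio of tissue over shoot between array sets of 1 replicate was 0.136 in root, 0.269 in panicle, 0.166 in callus and 0.108 in IR64. Between replicates it was 0.219, 0.312, 0.558 and 0.362 in the same order, and 0.157 in IR64 without saturated spots. Callus stood out in that its replicates were shifted as a whole: the median ratio of replicate 1 was 0.11 and that of replicate 2 was 0.61. The corresponding medians were 0.37 and 0.47 in root, 0.32 and 0.38 in panicle, and 0.00 and 0.02 in IR64. Dye and replicate move together here, while both callus replicates name the same shoot extract. The part of dye and replicate in the callus shift was not tested.

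Clone probes were more often higher than lower in the other Nipponbare organs than in shoot. With limma and Benjamini-Hochberg adjustment over all probes at 0.05, 448 of 1028 clone probes were higher in root than in shoot (43.6%, against 23.1% of all probes) and 236 were lower (23.0%, against 23.3%). In panicle 403 were higher (39.2%, against 22.6%) and 218 lower (21.2%, against 24.7%). In callus 447 were higher (43.5%, against 24.9%) and 256 lower (24.9%, against 24.7%). In IR64 only 19 were higher (1.85%, against 2.85%) and 53 lower (5.16%, against 4.21%). Thus the share of higher calls was above that of all probes in the 3 Nipponbare organs. In this fit the share of lower calls lay near that of all probes. After normexp and loess normalization it lay above, at 27.1% against 21.1% in root, 26.3% against 21.5% in panicle and 32.8% against 25.3% in callus. The share of higher calls was above under that setting too. With the replicate as a block, 31 clone probes were higher (3.02%, against 3.67% of all probes) and 68 lower (6.61%, against 5.13%) in IR64.

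The medians showed the same shift. The median log2 ratio of the clone probes was 0.44 in root, 0.34 in panicle, 0.38 in callus and 0.02 in IR64, against -0.05, -0.05, -0.06 and 0.02 over all probes. The quartiles of the clone probes ran from -0.48 to 1.16 in root, from -0.41 to 0.94 in panicle, from -0.59 to 1.24 in callus and from -0.20 to 0.22 in IR64. Part of this shift was shared by other bright probes: the roughly 10000 other probes with a signal over 10000, a level chosen after the values were seen, had medians of 0.17, 0.17, 0.12 and -0.03. Of those, 37.6% were higher in root, 37.0% in panicle, 41.0% in callus and 3.09% in IR64, and 29.7%, 29.7%, 31.9% and 7.49% were lower. In root, panicle and callus the clone probes thus had more higher and fewer lower calls than these other bright probes, whereas in IR64 they had fewer of both. The other probes were only required to exceed 10000 and were not matched to the clone probes in signal, and the differences were not tested. Moreover, a clone probe's ratio was the mean of 2 spots per replicate and that of another probe came from 1. With array set 1 alone, 42.9%, 37.8% and 42.7% of clone probes were higher in root, panicle and callus. With array set 2 alone these shares were 43.2%, 39.0% and 42.1%. With 1 fit per array set, taking the larger p of the 2, they were 39.8%, 35.0% and 39.7%. Leaving out 1 replicate lowered the counts over all probes and most counts of clone probes. In callus, however, the count of higher clone probes stayed the same without replicate 1. The count of lower clone probes rose slightly without callus replicate 2, where its share was above that of all probes. Without replicate 2 of root, 298 clone probes were higher (29.0%, against 14.7% of all probes), and without replicate 1, 319 (31.0%, against 16.8%). In panicle 258 (25.1%, against 16.7%) and 261 (25.4%, against 17.01%) were higher without replicates 2 and 1. In callus 316 (30.7%, against 17.6%) were higher without replicate 2 and 447 (43.5%, against 18.4%) without replicate 1.

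**Figure D2:**
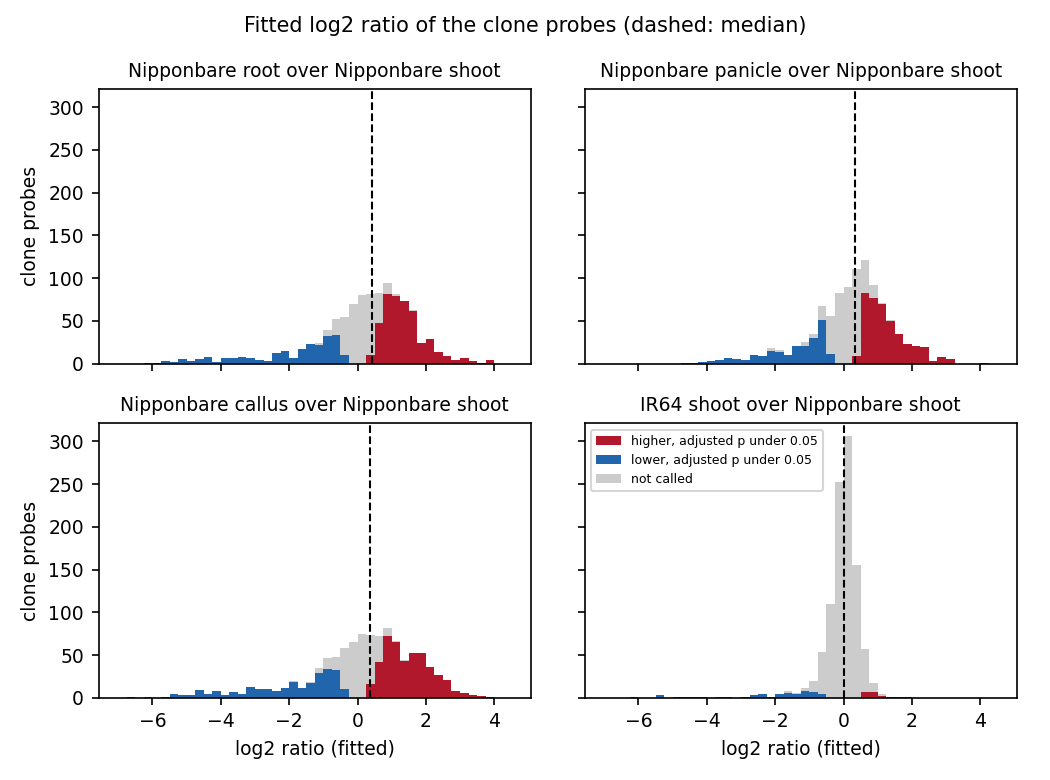
Number of clone probes by fitted log2 ratio of tissue over Nipponbare shoot, 1 panel per comparison, with bars stacked by call (red higher, blue lower, gray not called) and a dashed line at the median. The medians of root, panicle and callus, 0.44, 0.34 and 0.38, lie right of 0 with a long tail of lower probes, and in IR64 nearly all probes lie near 0.

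Log2 ratios beyond 1 in size were common among organs and rare between cultivars. In root 312 clone probes had a log2 ratio above 1 and 163 below -1. In panicle these counts were 237 and 136, and in callus 320 and 187. In IR64 they were 8 and 48. The contrast was not particular to the clone probes. Over all probes the median absolute log2 ratio was 0.61 in root, 0.63 in panicle, 0.64 in callus and 0.19 in IR64. For the clone probes it was 0.92, 0.73, 0.99 and 0.22 in the same order. Over the 4 Nipponbare tissues, the median distance from the lowest to the highest fitted level of a clone was 1.47 on the log2 scale, with 59 clones under 0.5, 278 under 1, 313 over 2 and 115 over 3. The tissue with the highest fitted level was callus for 354 clones, shoot for 248, root for 235 and panicle for 191. The callus level averages 2 replicates with medians of 0.11 and 0.61, and the ranking was not repeated within replicates. A lead of more than 1 over the next tissue was most frequent for shoot, with 104 clones, followed by callus with 54, root with 25 and panicle with 18.

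The 4 clones that rose most in root, among those with no saturated or outlier spot on the root arrays, were also higher in panicle and callus than in shoot. The signal of AK060340 was 46698 and 72946 in root, against 3206 and 4751 in shoot on the same arrays. Its log2 ratio was 3.95 ± 0.24 (limma standard error, 2 replicates, adjusted p = 6.5e-05), with 4.11 in panicle and 2.89 in callus. AK072559 gave 94550 and the limit of 100000 in root against 9126 and 9369 in shoot, a log2 ratio of 3.95 ± 0.15 (adjusted p = 1.4e-05). It was also higher in callus, by 3.30, and in panicle, by 2.87. AK066073 gave 91562 and 100000 in root against 7005 and 8452 in shoot, a log2 ratio of 3.91 ± 0.18 (adjusted p = 2.4e-05), beside 3.04 in panicle and 3.17 in callus. For these 3 clones no root signal overlapped any shoot signal, and in IR64 shoot none of them passed the test. The fourth, AK105175, is described with the clones led by root.

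Chosen in the same way, the clones that fell most in root lost nearly all of their shoot signal there. AK060726 was at the limit in all 8 shoot hybridizations and in panicle, callus and IR64, and gave 4854 and 9148 in root, a log2 ratio of -6.00 ± 0.44 (adjusted p = 0.00013). Of these 4 falls in root it was the only one whose ratios did not pass the test in any of the other 3 comparisons. AK061740 gave 2165 and 3854 in root and 3867 and 4251 in callus, while panicle and IR64 were at the limit and shoot ran from 95148 to 100000. Its log2 ratio was -5.77 ± 0.38 in root (adjusted p = 8.5e-05) and -5.32 ± 0.38 in callus (adjusted p = 0.0001), so it was bright in shoot and panicle and dim in root and callus. AK109434 gave 1668 and 2545 in root against 55748 and 64814 in shoot, a log2 ratio of -4.82 ± 0.17 (adjusted p = 1e-05). In panicle it gave 53622 and 58939, close to its shoot signals of 68852 and 73004 on those arrays, while it was lower in callus, at -1.72 ± 0.17 (adjusted p = 0.00031), and in IR64, at -1.65 ± 0.17 (adjusted p = 0.0029). AK069157 fell in all 3 organs, by -4.49 in root, -3.53 in panicle and -3.45 in callus, with shoot at the limit throughout.

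In panicle, too, the largest rises among clones with no saturated or outlier spot on those arrays were shared with root and callus. AK060340, with its larger 4.11, had a saturated spot there. AK059070 was at the limit of 100000 in both panicle replicates, against 19227 and 14679 in shoot on the same arrays. Its log2 ratio was 3.24 ± 0.21 in panicle (adjusted p = 0.00011), 2.93 in root and 2.95 in callus. AK059838 gave 65764 and 77966 in panicle against 6754 and 9757 in shoot, 3.20 ± 0.21 (adjusted p = 0.00011), and was higher still in root, at 3.94. The levels of these clones in root, panicle and callus thus lay closer to each other than to shoot. AK065743 was at the limit in panicle against 28811 and 24741 in shoot, with a log2 ratio of 3.08 ± 0.22 (adjusted p = 0.00015), while root and callus gave 2.22 and 2.18. AK066073, already described for root, was the fourth of these rises.

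The falls in panicle, under the same filter, had different partners. Over all clone probes the lowest panicle ratio was -4.51. AK072414 gave 17752 and 19576 in panicle and 12238 and 17540 in callus, whereas all shoot, root and IR64 signals were at the limit. Its log2 ratio was -4.10 ± 0.21 in panicle (adjusted p = 5.6e-05), -4.25 ± 0.21 in callus (adjusted p = 2.7e-05) and -0.19 in root (adjusted p = 0.52). AK061044 gave 16909 and 21533 in panicle, -3.82 ± 0.32 (adjusted p = 0.00027), and was at the limit in shoot, callus and IR64. In root its ratio of -1.62 passed the test (adjusted p = 0.0076) but not with either replicate left out. AK068554 was low in all 3 organs, with 18208 and 17055 in panicle, 11979 and 17846 in root and 10858 and 13485 in callus, against shoot signals from 99835 to the limit. Its log2 ratios were -3.86, -4.33 and -4.87 in that order. The fourth, AK099961, is described with the clones led by shoot. So of the other 3 falls, 1 was shared with callus, 1 with neither root nor callus to a like extent, and 1 with both.

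In callus the clones with the largest rises were led by callus and were also higher in root and panicle. AK066890 gave 100000 and 97621 in callus against 8909 and 6761 in shoot, a log2 ratio of 3.87 ± 0.13 (adjusted p = 9.9e-06), and 2.54 in root and 2.35 in panicle. AK071036 gave 71454 and 75865 in callus against 6930 and 5762 in shoot, 3.60 ± 0.17 (adjusted p = 2.3e-05), and AK061345 gave 99789 and 96990 against 12981 and 10234, 3.34 ± 0.13 (adjusted p = 1.4e-05). Callus lay 1.33, 1.14 and 1.10 above the next tissue for these 3. AK063504 was at the limit in callus, with a log2 ratio of 3.61 ± 0.38 (adjusted p = 0.00047). Its shoot signal on the callus arrays was 26557 in replicate 1 and 7822 in replicate 2, so its 2 callus ratios were 2.75 and 4.48. The rises of AK063504 in root, 1.86, and panicle, 1.90, passed the test, but the root rise did not without replicate 2 and the panicle rise did not without either replicate.

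Besides AK061740 and AK072414, the largest falls in callus among clones with no saturated or outlier spot on those arrays were those of 2 clones at the limit in every shoot hybridization. Over all clone probes the lowest callus ratio was -6.75. AK072166 gave 6748 and 8593 in callus, -4.69 ± 0.20 (adjusted p = 1.7e-05), and fell less in root, by -2.18, and in panicle, by -1.60. AK066837 gave 12136 and 15195 in callus and 11299 and 15942 in root, with log2 ratios of -4.20 ± 0.17 (adjusted p = 1.4e-05) and -4.26 ± 0.17 (adjusted p = 1.5e-05). In panicle it gave 41890 and 49849, a smaller fall of -2.68. Both were at the limit in IR64 shoot. The limit applies to signals only, and the ratios were fitted on the signals without it.

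Between the cultivars few clone probes differed, and those that differed most were lower in IR64. Of the 53 lower ones, 19 had a log2 ratio below -2, 23 lay between -1 and -2, and 11 above -1, with a median of -1.54. Of the 19 higher ones, 5 were above 1, with a median of 0.79. The probes carry sequence of Nipponbare, and the part of sequence differences between the cultivars was not tested. A limma fit on the IR64 arrays alone called 0 of all 83038 probes, clone probes included. Its unadjusted p was under 0.05 for 182 of 1028 clone probes and for 9643 of all probes. The calls in IR64 thus rest on a spread shared with the other comparisons. After normexp and loess normalization 73 were higher (7.10%, against 3.79% of all probes) and 108 lower (10.5%, against 5.11%), so that the share of higher clone probes moved from below that of all probes to above it.

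The 4 largest falls in IR64 were found in clones that were bright in Nipponbare shoot. AK062819 gave 1244 and 1468 in IR64 against 80713 and 95042 in Nipponbare shoot on the same arrays, a log2 ratio of -6.10 ± 0.27 (adjusted p = 0.00025). In Nipponbare it was bright in every tissue, between 38820 in callus and the limit in panicle. AK099053 gave 429 and 411 against 16833 and 19136, -5.45 ± 0.16 (adjusted p = 0.00013), although in Nipponbare callus it reached 95155 and 89144. These 2 were thus close to the dim end of all clone probes in IR64 and not in any Nipponbare sample. AK058962 gave 3370 and 6703 (-5.36 ± 0.34, adjusted p = 0.00063) and AK105589 3433 and 4267 (-5.26 ± 0.18, adjusted p = 0.00016), both against the limit in every shoot hybridization. Both were also lower in Nipponbare root, panicle and callus than in shoot, with ratios from -3.22 to -2.09, but less so than in IR64.

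The rises in IR64, chosen under the same filter and test, were smaller. AK066843 gave 49376 and 57636 in IR64 against 15349 and 13700 in Nipponbare shoot, 1.85 ± 0.22 (adjusted p = 0.0051), and was also higher in panicle, by 3.02, and callus, by 2.06. AK071108 gave 96409 and 100000 against 34356 and 32152, 1.66 ± 0.20 (adjusted p = 0.0051), while Nipponbare root was lower, by -1.14. AK100914 gave 18415 and 18315 against 6955 and 7276, 1.34 ± 0.17 (adjusted p = 0.0061). AK059771 gave 16620 and 17787 against 8016 and 7779, 1.09 ± 0.13 (adjusted p = 0.0049), beside 3.11 in root, 2.97 in panicle and 2.44 in callus. In each of the 4 both IR64 signals lay above both shoot signals of the same arrays. For AK100914 the higher ratios in root, panicle and callus, 0.73, 0.72 and 0.87, passed the test, but each fell short of it with at least 1 replicate left out.

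The clones led by 1 Nipponbare tissue were taken from those with no saturated spot on any Nipponbare array. That left out AK068554 and AK069157, described above, whose shoot leads of 3.86 and 3.45 were larger than those that follow. AK099961, with a shoot lead of 3.27, had shoot signals from 92932 to the limit, and gave 10798 and 14316 in root, 13990 and 12313 in panicle and 13555 and 17747 in callus. Its log2 ratios were -3.46, -3.72 and -3.27 (the highest adjusted p was 6.7e-05), and in IR64 shoot it was -0.07. AK059443 and AK103568 had the same form, with shoot 3.10 and 3.02 above the next tissue and all shoot and IR64 signals at the limit. These 3 clones were therefore bright in shoots of both cultivars and at signals between 10798 and 41041 in Nipponbare root, panicle and callus.

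Root, panicle and callus leaders had smaller leads. AK073545 gave 69223 and 87222 in root against 9866 and 15390 in shoot, a log2 ratio of 2.71 ± 0.24 (adjusted p = 0.00025), with root 1.99 above panicle. AK105175 gave 37849 and 46743 in root against 3963 and 3269, 3.59 ± 0.31 (adjusted p = 0.00025), with root 1.63 above panicle, and AK104746 led in root by 1.46. The panicle leader AK059409 gave 53141 and 56424 in panicle against 13699 and 15165 in shoot, 1.98 ± 0.13 (adjusted p = 0.00011), while root gave 12096 and 11227 and callus 10779 and 10766. AK068566 and AK100676 were at the limit in panicle, with log2 ratios of 1.93 and 1.79, and neither passed the test in root. The callus leaders AK058520, AK067869 and AK104810 gave between 97353 and the limit in callus, with ratios of 2.25, 2.62 and 2.11 and leads of 2.25, 2.06 and 1.79. For AK058520 the spread between replicates was wide, with callus ratios of 1.77 and 2.74, and its fall in root, -0.76, passed the test (adjusted p = 0.042) but not with either replicate left out.

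**Figure D3:**
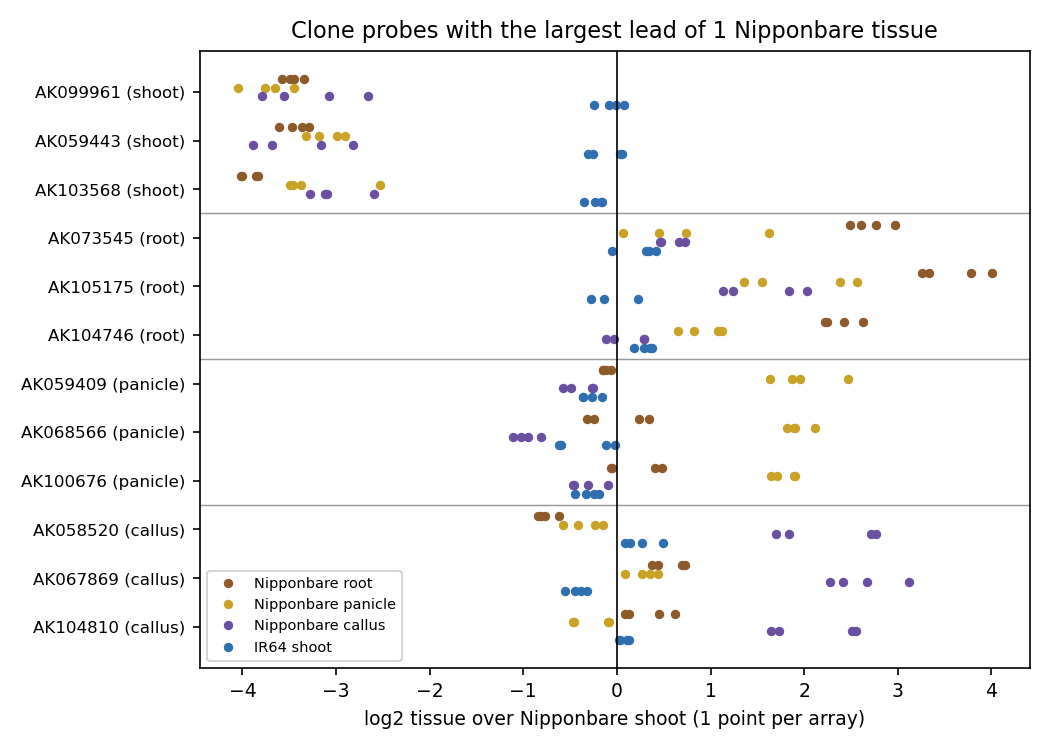
Log2 ratio of tissue over Nipponbare shoot on each array, 4 points per comparison, for the 3 clone probes with the largest lead of shoot, root, panicle and callus among clone probes with no saturated spot on the Nipponbare arrays. The shoot leaders lie below -2 on every root, panicle and callus array and near 0 in IR64, and in each other group the points of the leading tissue lie to the right of the rest.

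By the library read from the clone name, panicle clones had the highest median in panicle and callus clones in callus, by small margins. The study's library table assigns names that begin with J01 to a green shoot library, J02 to a panicle library and J03 to a callus library, and by the first 3 characters 203, 194 and 129 clone probes fell to these. The other 502 had numeric names and were not assigned. In panicle, the panicle clones had a median log2 ratio of 0.45, against 0.25 for green shoot clones, 0.28 for callus clones and 0.35 for numeric names. In callus, the callus clones had 0.56, against 0.24 for green shoot, 0.39 for panicle and 0.35 for numeric names. Panicle clones kept the highest median in each panicle replicate, with 0.40 and 0.47, but in callus the lead of the callus clones was found in replicate 1, with 0.36 against 0.16 for panicle clones, and not in replicate 2, where callus and panicle clones had 0.66 and 0.65. Of the panicle clones 42.8% were higher and 14.4% lower in panicle, against 22.6% and 24.7% of all probes. The lower share was 7.73% without panicle replicate 1 and 9.28% without replicate 2, against 17.05% and 18.3% of all probes. In callus, where 24.9% of all probes were higher and 24.7% lower, 50.4% of the callus clones were higher and 18.6% lower, and 39.9% of the green shoot clones were higher and 30.0% lower. Without callus replicate 2 the balance of the green shoot clones turned, to 26.6% higher and 30.0% lower.

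Clones of 1 library varied far more among themselves than the libraries differed in their medians. In root, which has no library of its own among the 3, panicle clones had the highest median, 0.61, against 0.42 for green shoot and 0.31 for callus clones. The span between quartiles of each library's clones was much wider than the distance between libraries, for example from -0.31 to 1.44 for callus clones in callus. Callus was the tissue with the highest fitted level for 41.9% of callus clones, against 34.4% of all clone probes. Shoot was the highest for 25.6% of green shoot clones, against 24.1% of all. Some leaders came from another library than the tissue they led: AK103568, led by shoot, and AK073545, led by root, carried names of the callus library. In IR64, 18 of 203 green shoot clones were lower (8.87%, against 4.21% of all probes), beside 5 of 194 panicle clones, 4 of 129 callus clones and 26 of 502 with numeric names. The green shoot count was 9 without IR64 replicate 1 and 10 without replicate 2 (4.43% and 4.93%, against 3.27% and 3.28% of all probes). No difference between libraries was tested.

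**Figure D4:**
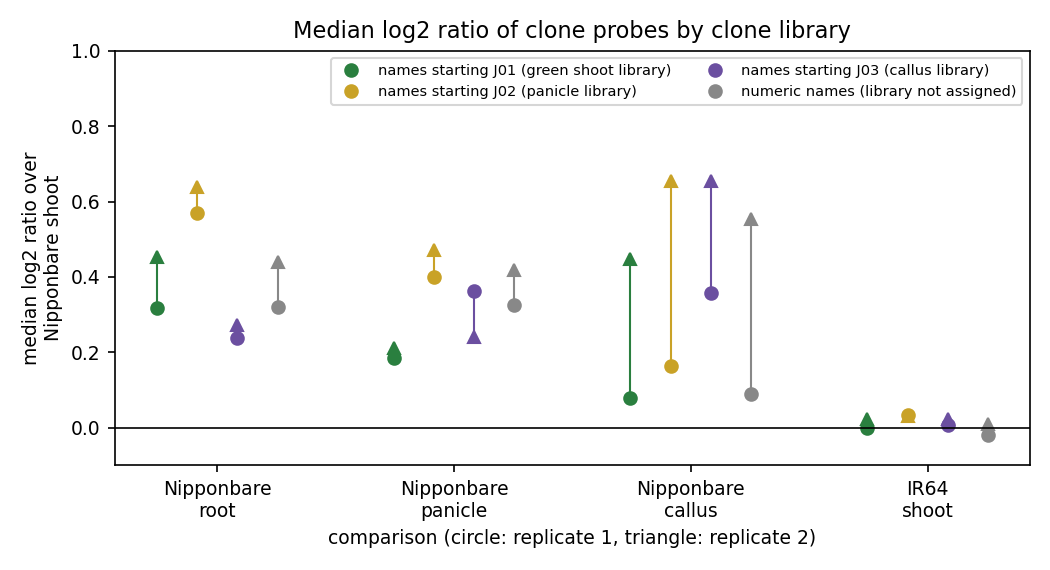
Median log2 ratio of tissue over Nipponbare shoot in each comparison for clone probes grouped by the library read from the clone name, with a circle for replicate 1 and a triangle for replicate 2. Panicle clones are highest in both panicle replicates, at 0.40 and 0.47, and in callus replicate 1 callus clones stand apart, at 0.36, while in replicate 2 they lie level with panicle clones.

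A few clones varied little. AK059396 gave 17767 and 19522 in root, 20686 and 18223 in panicle and 18489 and 20127 in callus, within the shoot range of 13559 to 24555 around a median of 19454. Its fitted levels over the 4 Nipponbare tissues lay within 0.04. AK058298 and AK073493 had ranges of 0.11. Signals of AK058298 ran from 7262 to 15910 in shoot and from 10810 to 16196 in the other Nipponbare organs, so the spread between hybridizations was wider than that between fitted levels. None of the 3 passed the test in any comparison, which does not show that their levels were equal.

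At the dim end stood AK059231, AK067667 and AK108097, taken by the median over the 4 Nipponbare samples. AK067667 gave 7338 and 7109 in root, 5939 and 6513 in panicle and 6824 and 7117 in callus, and from 23573 to 53383 in shoot with a median of 32575. It was therefore dim outside shoot and not in it, with ratios of -2.42, -2.88 and -2.25 (the highest adjusted p was 0.00027). AK108097 was dim throughout, from 4678 to 6504 in shoot and from 6066 to 10412 in the organs, and was higher in root, by 0.89 ± 0.14 (adjusted p = 0.0026), and in panicle, by 0.83 ± 0.14 (adjusted p = 0.0035). AK059231 depended on the array on which it was read, as described below for the shoot channel.

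The study places 3 of the clones at loci whose gene model encodes a domain that it lists as missing from the clone itself. AK058349 lies at a locus with an AP2 domain, a DNA-binding domain of plant transcription factors. It was at the limit in every organ and in nearly every shoot hybridization, which ran from 85136 to 100000, and its log2 ratios were 0.87 in root (adjusted p = 0.034) and 0.80 in callus (adjusted p = 0.042). On the root and callus arrays 4 of its spots were saturated, and without saturated spots the callus ratio was 0.24 (adjusted p = 0.39). The root call was lost with either replicate left out. AK059443, the shoot leader above, lies at a locus with a B-box, a zinc-binding domain found in plant regulators of light responses. It gave 22874 and 36031 in root, 34400 and 41041 in panicle and 23210 and 33341 in callus against the limit in shoot, with ratios of -3.43, -3.10 and -3.39. AK058489 lies at a locus of the mitochondrial carriers, a family that moves metabolites across the inner mitochondrial membrane. It was lower in callus, with 38565 and 44049 against the limit in shoot and a ratio of -1.68 ± 0.16 (adjusted p = 0.00032), and close to shoot in root, with -0.15.

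The labels give the 8 shoot hybridizations the same few extracts, and for most clone probes the shoot signal was alike on all arrays. With the signals taken without the limit, the shoot signal on the arrays of 1 comparison was compared with its median on the 6 other shoot hybridizations. It lay within 2-fold in both replicates for 987 of 1028 clone probes on the root arrays, 981 on the panicle arrays, 982 on the callus arrays and 937 on the IR64 arrays. The median ratio was 1.10, 1.23, 1.03 and 0.72 in that order. A ratio over 4 in both replicates, a level chosen after the values were seen, was found for 3 clone probes on the panicle arrays, 1 on the root arrays and 0 on the others. Lower by more than 4-fold in both replicates were 3 on the IR64 arrays, 1 on the callus arrays and 0 on the others.

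The 3 clone probes with raised shoot signal on the panicle arrays were AK059231, AK103001 and AK060340. Of these AK103001 was named after its values were seen. AK059231 gave a shoot signal of 246801 and 115791 on the panicle arrays and between 2883 and 3710 on the others, 72.5 and 34.0 times the median there. The panicle signal on the same arrays was 580563 and 331848, so its log2 ratio on the array was 1.39, against 7.07 if the shoot signal of the other arrays is taken. A spot of AK059231 was saturated on 3 of the 4 panicle arrays. AK103001 gave shoot signals of 37485 and 24174 on the panicle arrays and 19077 and 20681 on the root arrays, against 1541 and 1248 on the callus arrays and 963 and 831 on the IR64 arrays. Its ratio was 2.73 in panicle and 2.96 in root on the array, and 7.17 and 6.77 against the other arrays. For AK060340 the shoot signal on the panicle arrays was 9.72 and 5.74 times that elsewhere, and its ratio 4.11 on the array against 7.01. In all of these cases the shoot signal was raised on arrays where the other channel was brighter still, in both dye orientations, and the cause was not tested. With shoot chosen as raised and the other channel brighter still, the ratio on the array must be the smaller one, with the same sign.

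**Figure D5:**
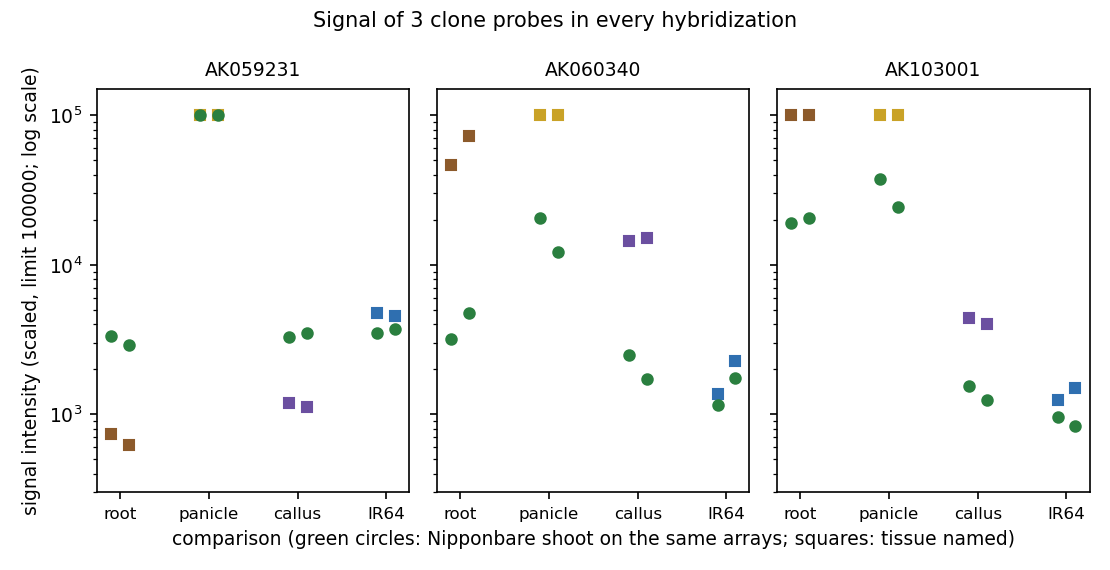
Signal intensity (log axis, limit 100000) of AK059231, AK060340 and AK103001 in every hybridization, with Nipponbare shoot as circles and the tissue named below as squares. The shoot circles of AK059231 are at the limit on the panicle arrays and between 2883 and 3710 on the others, and those of AK103001 are raised on the root and panicle arrays.

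For 86 clones the design held a second probe, on 1 array set, whose annotation as a probe of an FL-cDNA locus gives the same clone. These probes were much dimmer, with a median signal of 2910 against 37466 for the clone probes, and the clone probe was the brighter one in 78 of 86 pairs. The log2 ratios of both had the same sign for 68 pairs in root, 64 in panicle, 61 in callus and 61 in IR64, and their median absolute difference was 0.60, 0.42, 0.51 and 0.17. Across the pairs, which share RNA and arrays and are not independent replicates, r was 0.72, 0.77, 0.79 and 0.73. The r in IR64 leans on 1 far pair, AK059529, with -4.60 for the clone probe and -6.02 for the second. Without that pair it was not computed. Other pairs differed in IR64, such as AK065202 with -2.61 and -0.56 and AK100960 with -0.99 and 1.82. The second probe of AK065202 was dim, with a median Nipponbare signal of 640. That of AK100960 had a median of 0, the value set where a signal was not well above background. Of the 54 clone probes of these pairs called in root, 37 had a second probe called in the same direction. The counts were 26 of 48 in panicle, 37 of 58 in callus and 2 of 7 in IR64. A call in the opposite direction was found for 1 pair, in panicle.

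For single clones the second probe sometimes gave another picture. AK066073 had a second probe with log2 ratios of 3.92 in root, 2.01 in panicle and 3.71 in callus, beside its own 3.91, 3.04 and 3.17. AK065743 had a second probe with 2.94, 2.86 and 2.46, beside its own 2.22, 3.08 and 2.18. By contrast, the second probe of the callus leader AK058520 gave 0.00 in callus (adjusted p = 0.98) at a signal of 788, where AK058520 itself gave 2.25. The second probe of the panicle leader AK100676 gave 2.24 in panicle but also 1.81 in root and 1.12 in callus. For AK100914, the rise of 1.34 in IR64 stood beside 0.12 for its second probe (adjusted p = 0.97). Which probe of a pair is nearer to the transcript level was not tested.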

How the data were processed

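The deposited intensity values are the processed Cy3 and Cy5 signals of 16 arrays, 44290 spots each. They were produced by the authors in Agilent Feature Extraction (version 8.1 in the file headers and the study's methods, 7.5 in the submitters' processing notes), which subtracted background with spatial detrending and normalized dyes within an array by linear and LOWESS steps. The deposited log10 ratios, tissue over shoot, come from the same run by the authors and served as an alternative. The 1-or-0 flags mark saturation, outliers and signals well above background. Nothing was scaled between arrays by the software.

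Members and lists were chosen with earlier results of these data known. Each probe's log2 ratio was turned to tissue over shoot, the spots of both array sets were averaged within a replicate, outlier spots were left out, and 8 columns were fitted with limma 3.58.1 (R 4.3.3; lmFit, eBayes, 4 coefficients, Benjamini-Hochberg over all probes, threshold 0.05), after a test on simulated data. Errors are limma standard errors that share 1 spread over the comparisons. Nothing states that replicates came from separate cultures beyond their pooled plants, so p-values measure the spread between these samples. The number of arrays limits the precision. Signals were scaled and limited as in the study's methods, averaged over array sets, and, as a choice made here, set to 0 where not well above background.

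Same-numbered replicates share a dye orientation and mostly a shoot extract. Their differences correlated across all probes with r from 0.216 to 0.480, and across the clone probes with r from 0.009 to 0.505. Replicate number and dye orientation cannot be told apart, so this does not show that the numbers pair the samples. A replicate block was fitted as an alternative only, and its term passed for 94 probes and 0 members. Each comparison was scanned on its own day, so scan and comparison cannot be told apart.

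Named clones were the 4 largest rises and 4 largest falls per comparison without saturated or outlier spots, the 3 with the largest lead of each Nipponbare tissue among those with no saturated spot on the Nipponbare arrays, the 3 dimmest, the 3 of smallest range with no saturated spot, and those the study annotates. The 3 brightest were not named, since 73 clones tie at the limit. The planned marker and gene lists were not run, because the gene table matched 0 members. Other alternatives were centring, saturation and dim-probe filters, single array sets, other fits, normexp with an offset of 50, other signal scalings and leaving out each replicate. The comparison with shoot signals of other arrays was added after seeing the data.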

Additional observations from a re-analysis of the deposited data

Results flagged for a closer look

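Dixon's test at the 95% level was run on 38 sets of 8 shoot values: the signals of the named clones, except 11 clones whose signals were all at the limit, and 2 summaries over the clone probes, their median signal and their number at the limit. Chance alone would mark about 1 in 20. It marked 7. In 4 of them the marked signal was merely below the limit of 100000 at which the others stood: AK061740 with 95148 (IR64 arrays, replicate 2), AK068554 with 99835 (panicle arrays, replicate 1), AK099961 with 92932 (IR64 arrays, replicate 2) and AK058349 with 85136 (callus arrays, replicate 2, nearest 98764).

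The other 3 stood apart below the limit. AK063504 was highest at 26557 on the callus arrays of replicate 1, against a next signal of 12667 and a median of 8790. AK071036 was lowest at 3132 on the IR64 arrays of replicate 2, against 5330 and a median of 5828, and its IR64 signal on those arrays, 3074, was low too. AK073545 was highest at 15390 on the root arrays of replicate 2, against 10819 and a median of 8699. The labels give these hybridizations the same few shoot extracts, so their signals repeat extracts and do not sample new plants.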

How the results depend on the processing

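The medians of the clone probes kept their sign in all 4 comparisons under every alternative. Centring the arrays on their median moved the panicle median to 0.39. Leaving out 1 replicate gave medians from 0.37 to 0.47 in root, 0.32 to 0.38 in panicle, 0.11 to 0.61 in callus and 0.00187 to 0.0218 in IR64. It gave 298 to 319 higher and 143 to 145 lower clone probes in root, 258 to 261 and 128 to 142 in panicle, 316 to 447 and 172 to 261 in callus, and 4 to 9 and 26 to 27 in IR64, where such a fit has fewer samples. In IR64, with either replicate left out, the share of lower clone probes lay below that of all probes, while with both replicates it lay above. In panicle the share of lower clone probes lay below with either left out, and in callus above. In root it lay below without replicate 1 and above without replicate 2. The higher count in IR64 was 32 without dim probes (3.11%, against 4.01% of all probes). It was 31 with the replicate block (3.02%, against 3.67%) and 9 with 1 fit per array set (0.88%, against 2.85%). With normexp and loess it was 73 (7.10%, against 3.79%), and the lower count was 108 (10.5%, against 5.11%). A fit on 1 comparison only called 0 of all probes in IR64, clone probes included. With the replicate block, 477 clone probes were higher in root (46.4%, against 25.8% of all probes) and 256 lower (24.9%, against 26.4%). In panicle 439 were higher (42.7%, against 25.3%) and 239 lower (23.2%, against 27.8%). In callus 475 were higher (46.2%, against 26.97%) and 291 lower (28.3%, against 27.8%). The cause of these differences was not tested.

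The median Nipponbare signal, 41658, was 33194 when channels were scaled by probes well above background, 29231 without scaling and 25830 with normexp and Aquantile, under which 220 clone probes in place of 340 reached the limit in any Nipponbare sample and the ratio to FL-cDNA loci was 13.96 in place of 17.8. For the 120 named results with a call, 1680 alternatives were computed: 1608 stayed past the threshold in the same direction, 72 kept the direction without passing, and 0 turned sign. Of the 120, 29 fell short in at least 1 alternative. Signals at the limit have no order, and 2 replicates with opposite dyes cannot separate dye from replicate.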
